A study of Rattus norvegicus with 3 samples.

Results

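Egr1, Egr2, Egr3, Nab1, Nab2, Pou3f1 and Pou3f2, the EGR, NAB and POU class 3 regulators of Schwann cell gene expression, were followed by symbol in RNA sequencing of cultured Schwann cell precursors. All 7 genes were found, each on 1 row, among the 17337 genes of the deposited table. The cells were wild-type, untreated glia of embryonic rat dorsal root ganglion, described as primary cells and grown in a modified Sato medium based on DMEM. The 3 libraries, poly(A)-selected and stranded, form 1 group with no second condition, so the data give levels and not responses. Separate cultures are not named in the labels, so every p-value rests on a spread between libraries that may be technical. Values are TPM, a read count per unit of gene length expressed as a share of 1000000 in each library, with SD over 3 libraries unless stated otherwise.

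EGR proteins are zinc finger transcription factors, and some of them, Egr1 included, are induced quickly by growth factors. Egr2, also called Krox20, is required in Schwann cells for the step from the promyelinating to the myelinating stage. Nab1 and Nab2 encode proteins without DNA-binding activity of their own that bind EGR proteins and modulate them, mostly as corepressors, and in mice they are needed together for normal myelination. Pou3f1 (Oct6 or SCIP) and Pou3f2 (Brn2) encode POU homeodomain factors that, with Sox10, promote the onset of Egr2 expression in mouse Schwann cells.

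The libraries held 14139074 to 15309526 counts. All 13 Schwann cell precursor markers were above 1 TPM, beside 78.4% of all genes tested. Their summed level was 10388 to 10608 TPM per library. Of 11 fibroblast markers 10 were above 1 TPM, with a summed level of 8916 to 9119 TPM, and the remaining gene, Col1a2, is listed at more than 1 place in the genome. Of 11 measured sensory neuron markers 10 were above 1 TPM and the sum was 761 to 784 TPM. All 6 mural markers were above 1 TPM, with a sum of 785 to 830 TPM. Most of that sum came from the contractile genes Tagln, at 466 ± 13.0 TPM, and Acta2, at 317 ± 10.9 TPM. Des, Cspg4, Rgs5 and Myh11 were each at 7.89 TPM or less. Of 6 macrophage markers 4 were above 1 TPM, from Lyz2 at 9.85 ± 0.463 down to Ptprc at 0.316 ± 0.0756 TPM. Their sum was 24.7 to 29.8 TPM. Of 6 endothelial markers 3 were above 1 TPM, from Cdh5 at 16.6 ± 1.03 TPM down to Cldn5 with no count. Their sum was 34.0 to 36.4 TPM. The part of each cell type in the levels given here was not tested. In bulk RNA, fewer cells of a type and less RNA per cell cannot be told apart.

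The sequence upstream of the start shows which motifs stand near these genes. RefSeq promoters of the GRCr8 rat assembly were found for 5 of the 7 genes by gene identifier, and the 250 bases before the annotated start were searched on both strands. Motifs were the CArG box (bound by SRF), the CRE core CGTCA (bound by CREB), the octamer ATGCAAAT (bound by POU factors), the EGR site GCGNGGGCG and the ETS core GGAAG. Egr1 and Egr2 are shown because each holds a CArG box and a CRE core, and Nab1 because it holds 3 EGR sites. Egr1 lies at chr18:26736828-26737077 on the plus strand, Egr2 at chr20:21054442-21054691 on the minus strand and Nab1 at chr9:56545392-56545641 on the plus strand. Capitals mark every match except those of the ETS core:
Egr1: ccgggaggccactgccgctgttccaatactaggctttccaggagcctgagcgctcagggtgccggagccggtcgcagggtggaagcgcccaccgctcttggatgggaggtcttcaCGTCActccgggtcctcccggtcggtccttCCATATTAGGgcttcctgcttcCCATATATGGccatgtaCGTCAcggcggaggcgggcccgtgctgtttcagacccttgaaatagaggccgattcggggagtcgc
Egr2: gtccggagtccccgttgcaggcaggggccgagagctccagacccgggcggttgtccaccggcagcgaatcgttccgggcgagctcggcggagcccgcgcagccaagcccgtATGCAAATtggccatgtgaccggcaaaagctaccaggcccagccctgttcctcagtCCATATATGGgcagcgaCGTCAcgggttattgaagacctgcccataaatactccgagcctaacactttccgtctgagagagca
Nab1: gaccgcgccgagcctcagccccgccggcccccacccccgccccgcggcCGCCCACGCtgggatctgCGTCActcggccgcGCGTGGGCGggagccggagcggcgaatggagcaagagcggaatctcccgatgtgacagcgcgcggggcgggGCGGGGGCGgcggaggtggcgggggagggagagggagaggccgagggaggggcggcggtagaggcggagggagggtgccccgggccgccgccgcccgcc

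A CArG box stood 83 to 74 bases before the start in both Egr1 and Egr2, with the same letters CCATATATGG, and a CRE core 66 to 62 bases before it in both. Egr1 had a second CArG box, CCATATTAGG, at 105 to 96 bases, a second CRE core at 135 to 131 bases and 4 ETS cores. Of those 4, 2 overlapped a CArG box, at 108 to 104 and at 87 to 83 bases before the start. Egr2 had an octamer at 139 to 132 bases. The 3 EGR sites of Nab1 lay at 202 to 194, 170 to 162 and 99 to 91 bases, beside 1 CRE core, and that of Pou3f2, with the letters GCGAGGGCG, at 145 to 137 bases. Nab2 held only 2 ETS cores among these motifs.

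Such matches are uncommon for some motifs and common for others. Of 27456 promoters of the same length, 412 held a CArG box, 7 at least 2 of them, and 68 a CArG box together with a CRE core (0.248%). A CRE core was in 19.0%, the octamer in 412 promoters, the EGR site in 4.53%, at least 3 EGR sites in 0.124% and the ETS core in 63.3%. The combinations counted are those that Egr1, Egr2 or Nab1 hold, so they were not chosen apart from these genes. The 27456 promoters were not matched for base content. The Nab1 window is 81.2% G and C, against 63.2% for Egr1 and 62% for Egr2. A match describes the letters of the window, and no binding was measured.

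**Figure D1:**
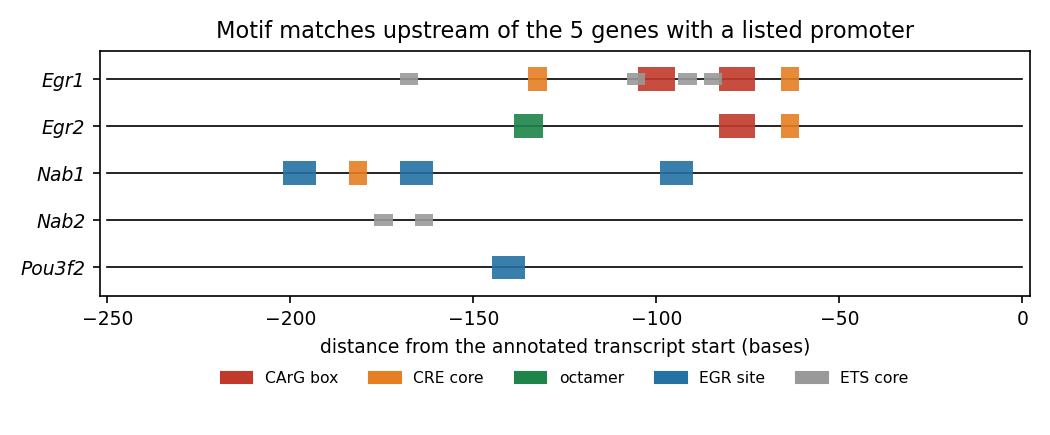
Motif matches on either strand in the 250 bases before the annotated start (x axis, distance in bases) of the 5 genes with a listed promoter. The CArG box and the CRE core nearest the start lie at the same distances in Egr1 and Egr2, and the 3 EGR sites of Nab1 lie between 202 and 91 bases before the start.

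All 3 EGR members were expressed. In TPM, Egr1 was the highest of them and Egr2 and Egr3 were close to each other. By reads, without division by the listed gene lengths, Egr1 over Egr2 was -0.22 and Egr2 over Egr3 1.42 on the log2 scale. Egr1 (NCBI gene 24330), the prototype immediate early member, is a plus-strand gene of chromosome 18, at 27657903 to 27660101 in the rn6 build. Positions here and below are the span of the listed blocks in which reads were counted. It was at 85.0, 94.5 and 82.6 TPM in replicates 1, 2 and 3, from 959, 992 and 868 counts, a mean of 87.3 ± 6.28 TPM. Replicate 2 was the highest, and its 95% exact Poisson interval, 88.7 to 101 TPM, overlapped that of replicate 1, 79.7 to 90.6 TPM, but not that of replicate 3, 77.2 to 88.3 TPM.

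Egr2 (gene 114090), the driver of myelin gene expression, is a minus-strand gene of chromosome 20, at 22454461 to 22458753. It was at 49.6, 53.0 and 54.4 TPM in replicates 1, 2 and 3, from 1086, 1079 and 1109 counts. The mean was 52.3 ± 2.45 TPM, and the Poisson intervals of the 3 libraries all overlapped. Egr3 (gene 25148), an EGR factor that has been linked, with Egr1, to the neurotrophin receptor gene Ngfr in Schwann cells, is a plus-strand gene of chromosome 15, at 51756978 to 51759434. It was at 54.8, 48.5 and 46.4 TPM, from 471, 388 and 372 counts, a mean of 49.9 ± 4.35 TPM. Egr3 was the only EGR member highest in replicate 1, where Egr2 was lowest.

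The remaining member of that family, Egr4, was at 0.0420 ± 0.0727 TPM, and limma placed it below 1 TPM. Of the summed EGR level of the 3 members, Egr1 made up 46.0 ± 1.89%, Egr2 27.6 ± 1.80% and Egr3 26.3 ± 2.26%. By reads, without division by length, the shares were 38.5 ± 1.72% for Egr1, 44.8 ± 2.16% for Egr2 and 16.8 ± 1.68% for Egr3, so that Egr2 was then the largest.

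The pair of corepressor genes differed in level. Nab2 (gene 314910), a minus-strand gene of chromosome 7 at 70963580 to 70969972, was at 96.8, 103 and 101 TPM, from 2407, 2384 and 2344 counts. Its mean was 100.3 ± 3.19 TPM, and the Poisson intervals of the 3 libraries overlapped. Nab1 (gene 64824), a plus-strand gene of chromosome 9 at 53906073 to 53945474, was at 12.7, 14.5 and 12.9 TPM, from 424, 450 and 401 counts. Its mean of 13.3 ± 0.976 TPM was the lowest of the 7 genes. The log2 ratio of Nab1 over Nab2 was -2.90 ± 0.07, so Nab2 was 7.48-fold higher, and it made up 88.3 ± 0.527% of the summed NAB level.

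The POU genes were also unequal. Pou3f1 (gene 192110), a plus-strand gene of chromosome 5 at 142643599 to 142646580, was the highest of the 7 genes at 140.2, 160.2 and 139.7 TPM, from 3088, 3285 and 2866 counts. Replicate 2 stood apart here beyond counting error, with a Poisson interval of 155 to 166 TPM against 135 to 145 TPM in each of replicates 1 and 3. Pou3f2 (gene 29588), a minus-strand gene of the same chromosome at 36677453 to 36683356, was at 19.0, 19.6 and 19.6 TPM, from 827, 794 and 795 counts. The means were 147 ± 11.7 TPM for Pou3f1 and 19.4 ± 0.347 TPM for Pou3f2. Their log2 ratio, Pou3f1 over Pou3f2, was 2.91 ± 0.10, or 7.53-fold, in 3 of 3 libraries.

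Most other POU genes were below 1 TPM, and Pou6f1 and Pou2f1 were above it. Of class 3, Pou3f4 was at 0.897 ± 0.323 TPM and passed in neither direction, and Pou3f3, at 0.0163 ± 0.0283 TPM, was below 1 TPM. Over Egr4 and the other POU genes, 12 measured in all, 2 were above 1 TPM by limma, 7 below and 1 in neither direction, and 2 had no count, Pou5f1 among them. A count of 3 in a library would be 0.298 to 0.320 TPM for Pou5f1. The 2 genes above 1 TPM were Pou6f1 at 20.6 ± 0.361 and Pou2f1 at 4.29 ± 0.715 TPM, and the median of these 12 genes was 0.0697 ± 0.0457 TPM. Below 1 TPM were, beside Egr4 and Pou3f3, Pou1f1, Pou2f2, Pou2f3, Pou4f2 and Pou4f3, all at 0.312 TPM or less.

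**Figure D2:**
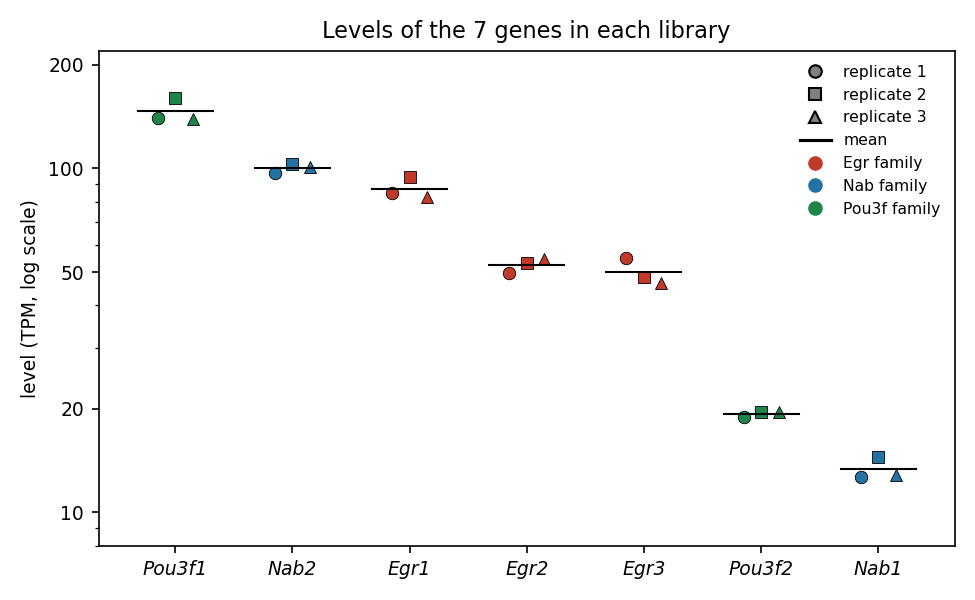
Level of each of the 7 genes in TPM (y axis, log scale) in the 3 libraries, with the mean as a line and colours for the EGR, NAB and POU class 3 families. Pou3f1 is highest at 147 TPM, Nab1 lowest at 13.3 TPM, and Egr2 and Egr3 overlap.

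Each of the 7 genes was above 1 TPM by limma with Benjamini-Hochberg adjustment over all 13345 genes with a count, the largest adjusted p being 2.71e-09, for Nab1. Of all genes tested, 78.4% were above 1 TPM in the same fit and 17.8% below, so 7 of 7 above is near what the table holds at large. The median of the 7 genes was 54.0 ± 0.954 TPM, beside 21.7 ± 0.195 TPM for all genes tested. By mean TPM, Pou3f1 lay at percentile 91.9 of the 17337 listed genes, Nab2 at 88.0 and Egr1 at 86.1. Egr2 lay at 77.5, Egr3 at 76.7, Pou3f2 at 59.9 and Nab1 at 54.8.

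The order of the levels was Pou3f1, Nab2, Egr1, Egr2, Egr3, Pou3f2 and Nab1, from high to low. Among the 21 pairs of members, the ranges over libraries overlapped only for Egr2 and Egr3. Their log2 ratio, Egr2 over Egr3, was 0.07 ± 0.19, with Egr2 higher in 2 of 3 libraries. In TPM, limma did not call this pair different (adjusted p = 0.421 over all genes set against Egr3). Without replicate 1 the ratio was 0.18 and passed (adjusted p = 0.00644), and without replicate 3 it was -0.01.

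Neighbours in the order were otherwise separate in each library. The log2 ratio of Egr1 over Nab2 was -0.20 ± 0.08, the smallest that passed, with Nab2 higher in 3 of 3 libraries. Nab2 over Pou3f1 was -0.55 ± 0.09 and Nab1 over Pou3f2 -0.54 ± 0.09, again of 1 sign in 3 of 3 libraries. Egr1 exceeded Egr2 by 0.74 ± 0.12 and Egr3 by 0.81 ± 0.17. Egr2 exceeded Pou3f2 by 1.43 ± 0.04, and Egr3 exceeded it by 1.36 ± 0.15.

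Ratios of an EGR gene to a corepressor gene depended on the corepressor gene taken. Egr2 over Nab2 was -0.94 ± 0.04 and Egr2 over Nab1 1.96 ± 0.10 on the log2 scale. Egr3 likewise lay below Nab2, at -1.01 ± 0.16, and above Nab1, at 1.89 ± 0.19. Egr2 over Pou3f1 was -1.48 ± 0.12, so the transcript of the activator was 2.80-fold that of Egr2.

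Each fit against a member also places that member among all genes tested. Set against Pou3f1, 6 of 6 other members were below and 0 above, beside 88.1% below and 9.27% above among all genes. Against Nab2, 5 were below and 1 above, beside 83.3% and 14.7%, and against Egr1, 4 were below and 2 above, beside 79.8% and 16.2%. Egr2 and Egr3 each had 2 members below and 3 above, beside 68.6% and 27.2% of all genes for Egr2 and 66.7% and 27.7% for Egr3. Pou3f2 had 1 member below and 5 above, beside 46% and 50.4%, and Nab1 had 0 below and 6 above, beside 39.2% and 56.6%.

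In those fits 20 of 21 pairs passed. Each such fit divides every gene by the same member, so the ratios share its deviations and the p-values are too small. A fit of each pair beside 6669 pairs of other genes with no gene in common, added after the data were seen, gave those 20 pairs unadjusted limma p-values of 2.41e-07 to 0.0144. After Benjamini-Hochberg adjustment over all 6670 pairs, most of them close in level by construction, 5 passed. These were Egr1 over Nab1, Nab1 over Nab2, Nab1 over Pou3f1, Nab2 over Pou3f2 and Pou3f1 over Pou3f2.

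The order of some genes rests on the listed lengths. Egr1 and Egr3 have the shortest, at 1527 and 1164 bases, against 2963 to 5904 bases for the others. By reads alone, without division by length, the log2 ratio of Egr1 over Egr2 given above, that of Egr3 over Nab1, at -0.06, and that of Egr3 over Pou3f2, at -0.98, each had the sign turned. Egr2 over Egr3, near 0 in TPM at 0.07, was 1.42 by reads, so the closeness of these genes also rests on the lengths. Whether the listed blocks of Egr1 and Egr3 hold only coding sequence, and whether reads outside them would change their levels, was not tested. No other listed gene shared exon bases with any of the 7 in rn6.

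**Figure D3:**
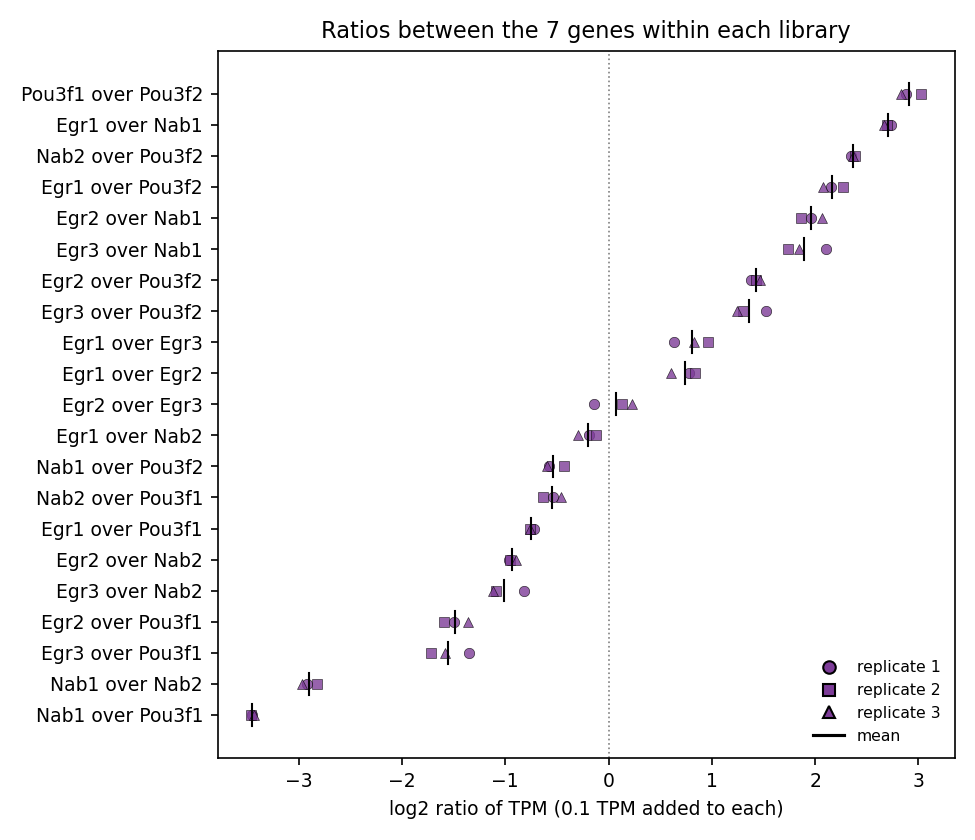
Log2 ratio of TPM within each library (x axis, 0.1 TPM added to each gene) for the 21 pairs of the 7 genes, with the mean as a black tick. Points of Egr2 over Egr3 fall on both sides of 0, and those of the other 20 pairs fall on 1 side.

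Summed over members, the EGR genes were at 189, 196 and 183 TPM in replicates 1, 2 and 3, the NAB genes at 109, 117 and 114 TPM, and the POU class 3 genes at 159, 180 and 159 TPM. The EGR sum exceeded the NAB sum by a log2 ratio of 0.74 ± 0.05, or 1.67-fold, in 3 of 3 libraries. The POU sum lay below the EGR sum at -0.19 ± 0.06 and above the NAB sum at 0.55 ± 0.07. In read counts alone, each library scaled to the same total, the first of these was -0.20 and the second 0.67, both turned in sign, while the third was 0.47. These sums describe the chosen members, and no test was made of them.

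The 7 genes differed in how closely their libraries matched. The coefficient of variation (CV, SD over mean) of Egr3 was 8.71%, against 4.96% from counting error alone, that of Pou3f1 7.99% against 1.80%, and that of Egr1 7.19% against 3.27%. Nab1 had 7.32% against 4.86%, Egr2 4.68% against 3.03% and Nab2 3.18% against 2.05%. Pou3f2, at 1.79% against 3.52%, was the only member whose libraries differed by less than counting error gives. Among genes with a mean TPM within 2-fold, the CV of Pou3f1 lay at percentile 97.1, that of Egr3 at 93.3 and that of Egr1 at 92.3. The CV of Egr2 lay at percentile 63.4, that of Nab1 at 59.7, that of Nab2 at 49.4 and that of Pou3f2 at 7.37. The highest library was at most 1.18 times the lowest for any of the 7.

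The members did not share 1 highest library. Replicate 2 was highest for Egr1, Nab1, Nab2 and Pou3f1, replicate 3 for Egr2 and Pou3f2, and replicate 1 for Egr3. Of 8372 genes with a mean of 10 TPM or more, 42.5% were highest in replicate 1, 30.3% in replicate 2 and 27.2% in replicate 3. Of 11 other immediate early genes, 7 were highest in replicate 2, a count made after the values were seen. These patterns rest on 3 libraries of 1 group and were not tested, and no gene was named for resembling a member.

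**Figure D4:**
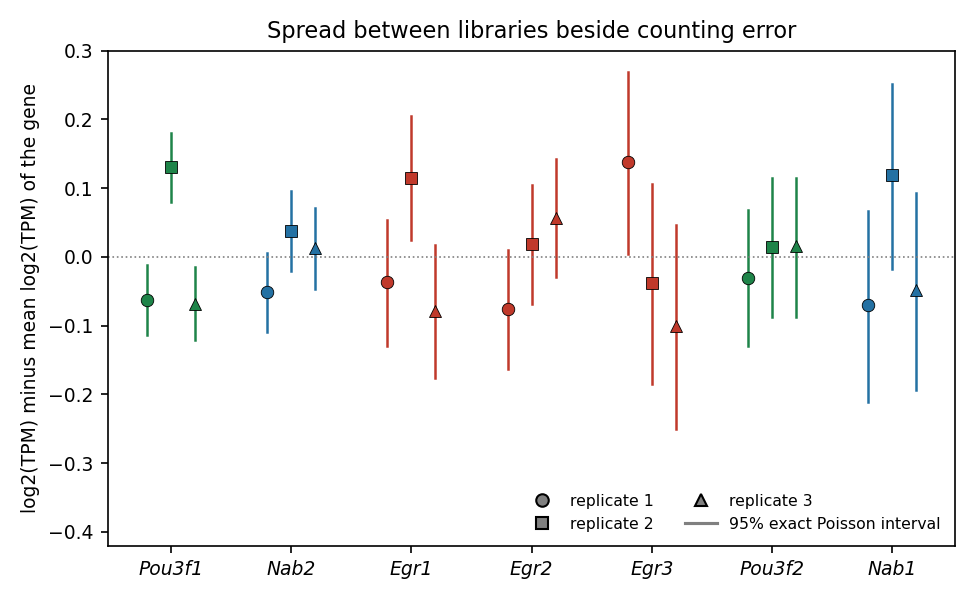
Deviation of each library from the gene's mean on the log2(TPM) scale (y axis) for the 7 genes, with 95% exact Poisson intervals as bars. Replicate 2 of Pou3f1 lies apart from the other libraries by more than the bars, whereas the 3 libraries of Pou3f2 lie together.

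Genes that the EGR and POU factors are known to work with or act on were read from lists in the same fit, beside which 78.4% of all genes tested were above 1 TPM. Of 15 myelin genes, the class activated by Egr2, 14 were above 1 TPM and 1 was below. The myelin enzyme gene Cnp was at 806 ± 10.3 TPM. Mag, the gene of a myelin adhesion molecule, was at 0.210 ± 0.0878 TPM and was the gene below. The median of the list was 26.6 ± 1.22 TPM, lower than the level of Egr2 itself and close to the 21.7 TPM of all genes tested.

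Lipid synthesis genes, which Egr2 activates together with SREBP factors, were all above 1 TPM, 11 of 11 measured. The desaturase gene Scd2 was at 4142 ± 50.7 TPM, Fdps of the isoprenoid pathway at 905 ± 26.7 TPM and Hmgcs1, an early enzyme of cholesterol synthesis, at 627 ± 12.9 TPM, with a list median of 251 ± 5.33 TPM.

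All 13 measured activators that act with or upstream of Egr2 were above 1 TPM, and their median was 118 ± 1.52 TPM. Sox10, which binds the Egr2 Schwann cell enhancer with POU factors, was at 612 ± 26.0 TPM, the TEAD coactivator gene Wwtr1 at 357 ± 3.99 TPM and the transcription factor gene Zeb2 at 283 ± 8.58 TPM. All 11 opponents of myelination were also above 1 TPM, and their median was 70.4 ± 4.40 TPM. The highest of these were Jun at 414 ± 31.0, Sox2 at 263 ± 11.8 and the receptor gene Notch1 at 125 ± 2.93 TPM. Beside the 52.3 TPM of Egr2, Hes1 at 47.8 ± 2.75 and Pax3 at 12.9 ± 0.366 TPM were lower. Snai2, at 52.6 ± 1.80 TPM, was close to Egr2, and the remaining opponents were above it.

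Genes of the measured partners of the NAB and EGR proteins were expressed. NAB proteins repress through the NuRD chromatin remodelling complex, of which 10 of 10 measured genes were above 1 TPM. Their median was 139 ± 3.17 TPM. Its histone-binding subunit gene Rbbp7 was at 426 ± 3.89 TPM, and the deacetylase genes Hdac2 and Hdac1 were at 236 ± 4.26 and 199 ± 3.01 TPM. Chd4, Chd3 and Mta3, also on the NuRD list, were not analysed here, so the count does not cover them. Of genes for proteins that bind or modify Egr2, 5 of 5 measured were above 1 TPM. Their median was 31.2 ± 1.74 TPM. The cofactor gene Hcfc1 was at 36.4 ± 1.33 TPM and the ubiquitin ligase gene Wwp2 at 30.9 ± 2.16 TPM.

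Genes of the factors that act on CArG boxes, and most other genes of the early response, were expressed too. Srf was at 39.3 ± 0.734 TPM and its ETS partners Elk1, Elk3 and Elk4 at 49.98 ± 5.08, 41.3 ± 1.71 and 39.8 ± 1.90 TPM, all 4 above 1 TPM and their median 40.9 ± 0.777 TPM. Of 11 other immediate early genes 10 were above 1 TPM and 1 passed in neither direction, with a median of 75.2 ± 3.50 TPM. Fos was at 155 ± 12.3, Ier2 at 105 ± 6.46 and the phosphatase gene Dusp6 at 99.0 ± 1.69 TPM, whereas Fosb, at 1.05 ± 0.155 TPM, was the gene in neither direction. Fosb was named because it is the single exception, after its value was seen.

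**Figure D5:**
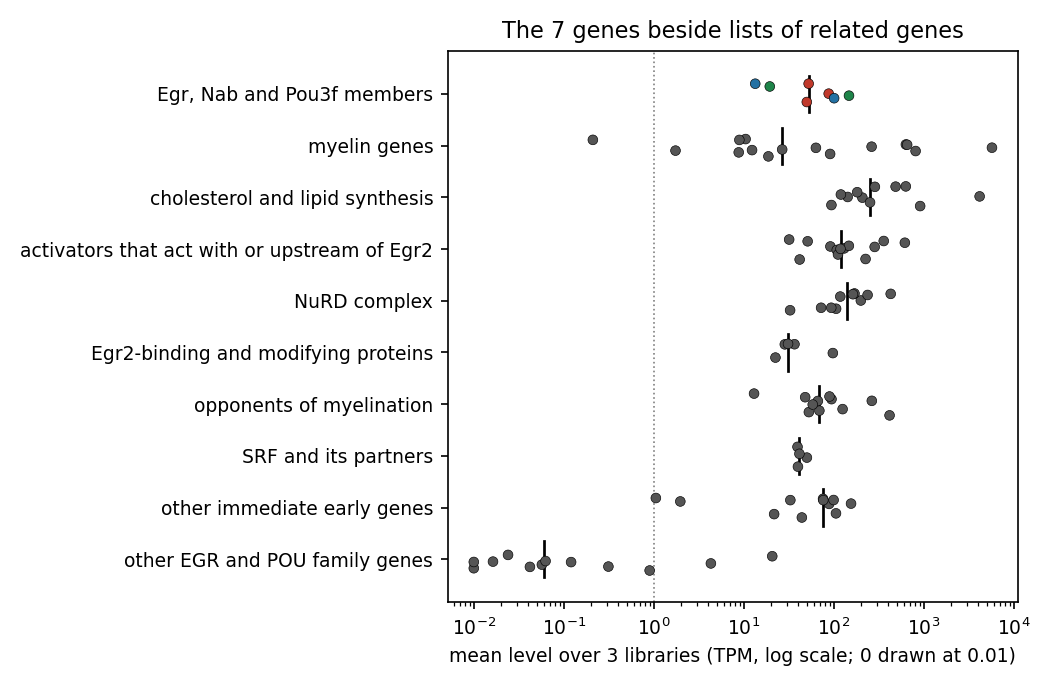
Mean TPM over 3 libraries (x axis, log scale, 0 drawn at 0.01) of the 7 genes, coloured by family, and of each measured gene of 9 lists, with list medians as ticks and a dotted line at 1 TPM. The 7 genes lie between 13.3 and 147 TPM, and the other EGR and POU family genes lie mostly below 1 TPM.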

How the data were processed

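RNA was measured in 3 libraries of 1 untreated group. The submitters' processing notes name STAR 2.5.2b, Subread and rn6, and the deposited column names point to featureCounts. The authors deposited raw counts per gene, gene lengths, counts over length and TPM. For annotation, strand setting and multi-mapped reads, the settings were not given in the sources used here. Count columns were matched to libraries by title and TPM columns by number. TPM recomputed from counts matched the deposited values to within 0.0005 TPM. The 2 rows without a gene name and 6 columns of totals were left out.

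With limma 3.58.1 (R 4.3.3), log2(TPM + 1) was tested two-sided against 1 TPM, with a variance trend, over 13345 genes with a count, at a Benjamini-Hochberg adjusted p under 0.05. Log2 ratios to each member, with 0.1 TPM added, were tested likewise. Both fits were checked on simulated data; of 50 genes simulated at 1 TPM, the first fit called 3 above and 6 below, so calls close to 1 TPM are less certain, whereas at 2 TPM it called 48 of 50 above and at 0.5 TPM 48 of 50 below. Poisson intervals (SciPy 1.17.1) and floors cover counting error only. edgeR 4.0.16 and DESeq2 1.42.0 gave scalings alone. Of 151 list symbols 142 were matched. From each list of related genes the 3 highest, and those below 1 TPM or with no count, are named; some genes that this rule names are left out. The members and lists were chosen with earlier results of these data known.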

Additional observations from a re-analysis of the deposited data

How the results depend on the processing

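The 7 calls against 1 TPM kept direction and side under all 9 alternatives (pseudocount, filters, variance trend, TMM or DESeq2 scaling, and each library left out). The number of genes below 1 TPM was 6235 over all listed genes and 1372 over those averaging 0.1 TPM or more, in place of 2374, and leaving out each library gave 2154 to 2255. Leaving out each library gave 10316 to 10385 genes above 1 TPM and 20 to 21 passing pairs. Of the 21 pairs 20 passed, and 5 beside disjoint pairs of other genes, an alternative added after the data were seen. The log2 ratio of Egr2 over Egr3 ran from -0.0076 to 0.18 in TPM when each library was left out, and was 1.42 by reads without division by length. By reads without division by length (CPM), a unit that was added for pairs and shares after the data were seen, Egr1 over Egr2 was -0.22, Egr3 over Nab1 -0.057 and Egr3 over Pou3f2 -0.98, and Egr2 took 44.8% of the EGR sum and Egr1 38.5%. In that unit, planned for the sums, EGR over NAB was -0.20, POU over EGR 0.67 and POU over NAB 0.47. These changes follow from dropping the division by gene length. Leaving out each library gave 0.71 to 0.76 for EGR over NAB, -0.23 to -0.16 for POU over EGR and 0.51 to 0.58 for POU over NAB. No paired analysis was possible because all libraries form 1 group. With 372 to 3285 counts per gene and library, counting error alone was 1.80% to 4.96%.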
